A study of Mus musculus with 8 samples.

Results

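The genes described here are 9 components of the Hedgehog signalling pathway, taken by symbol from the 23420 entries of the count tables: the receptor genes Ptch1 and Smo, the co-receptor genes Cdon, Boc and Gas1, the inhibitor gene Sufu, and the transcription factor genes Gli1, Gli2 and Gli3. All 9 symbols were found in both tables. The samples are NIH3T3 cells, a line of mouse embryonic fibroblasts, kept in calf serum and under puromycin for 1 week or more. The 4 knockdown libraries came from cells carrying shRNA against RPRD1B, a binding partner of the RNA polymerase II tail, and the 4 control libraries came from cells carrying a scrambled shRNA. No Hedgehog ligand or agonist is named in the labels for either group. The libraries were deposited as 2 sets, with replicates 1 and 2 of each group in set 1 and replicates 3 and 4 in set 2, and the labels say neither how the sets differ nor whether replicates are separate cultures. P-values therefore measure the spread between these libraries, which may be technical. All libraries come from 1 cell line, and which RPRD1B shRNA was used, or how many, is not stated in the labels.

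Hedgehog ligands are secreted proteins that act through PTCH1, a membrane protein that holds the transducer SMO inactive until ligand binds. Active SMO, which works at the primary cilium, releases the GLI transcription factors from SUFU and from proteolytic processing. GLI2 and GLI3 carry most of the first response, with GLI3 acting largely as a repressor when no ligand is present, and Gli1 and Ptch1 are themselves transcribed in response to the pathway. CDON, BOC and GAS1 bind ligand at the cell surface together with PTCH1. NIH3T3 cells are a common test line for this pathway, and Gas1 was first described as a gene of growth-arrested NIH3T3 cells.

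The libraries held 12311442 to 23223139 counts, and 3 counts, the limit that a count of 0 allows, equal 0.131 to 0.242 CPM (counts per 1000000, scaled by the trimmed mean of M-values). This limit covers counting error only. The precursor ribosomal RNA entry Rn45s took 4.99% to 9.98% of the counts. The 10 fibroblast markers were all present, and their summed level was 16356 to 16751 CPM in RPRD1B shRNA libraries and 16406 to 16945 CPM in scrambled libraries. Of these 10 genes 3 were called higher and 2 lower in the RPRD1B shRNA libraries. Among all genes tested 3.97% were called higher and 3.61% lower. Summed levels of the 6 epithelial markers did not pass 0.567 CPM in RPRD1B shRNA libraries or 0.585 CPM in scrambled libraries, with Epcam, Krt5 and Cldn4 at 0 throughout. The 5 endothelial markers summed to at most 0.658 CPM in RPRD1B shRNA libraries and 0.538 CPM in scrambled libraries. Those sums were at most 0.436 CPM in RPRD1B shRNA libraries and 0.615 CPM in scrambled libraries for the 5 muscle markers, with Myod1 and Myog at 0. For the 5 adipocyte markers they were at most 0.785 CPM in RPRD1B shRNA libraries and 0.706 CPM in scrambled libraries, with Plin1 and Lep at 0. The 6 leukocyte markers, with Adgre1 at 0, summed to 5.85 to 7.65 CPM in RPRD1B shRNA libraries and 5.41 to 10.8 CPM in scrambled libraries, nearly all of it Cd68 and Csf1r. The 6 neural markers, with Sox2 at 0, summed to 59.4 to 68.7 CPM in RPRD1B shRNA libraries and 53.9 to 62.4 CPM in scrambled libraries, and of these Map2 and Syn1 were called higher and Nes lower. Their part in the results was not tested.

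Rprd1b, the targeted gene (chromosome 2, 158028475 to 158078207, mm10), stood at 26.4, 28.0, 22.5 and 22.7 CPM in RPRD1B replicates 1 to 4, against 42.3, 44.4, 39.5 and 40.8 CPM in scrambled replicates 1 to 4. Every knockdown library was thus lower than every control library. Permuting the group labels inside each set, an exact and two-sided test, gave p = 0.0556, which is the minimum over 36 assignments. The log2 fold change over both sets was -0.75 ± 0.07 (SE, adjusted p = 4.14e-14, edgeR), a level of 0.595 times that in scrambled cells. Rprd1b RNA was thus lowered but not lost. Exons of Tgm2 and another gene on the other strand cover 500 of the 6499 exon bases that GENCODE gives Rprd1b. The GENCODE outline of Rprd1b runs to 158132297, past the end of the RefSeq span given above.

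With knockdown the RNA of the co-receptor gene Cdon fell slightly over both sets together, while Gas1 and the receptor, inhibitor and GLI genes passed no test after adjustment. Boc was called lower on few counts, at log2 fold changes of -1.87 in set 1 and -0.03 in set 2 (edgeR), and DESeq2 did not call it. In bulk samples fewer cells that express a gene and less RNA per cell cannot be told apart. Over the 8 libraries, with the set as a term of the edgeR quasi-likelihood fit, 0 of the 9 genes were called higher and 2 lower at a Benjamini-Hochberg adjusted p under 0.05. Of all 11723 genes tested, 3.97% were called higher and 3.61% lower, 7.57% in all. An unadjusted edgeR p under 0.05 was found for 4 members, Boc, Cdon, Gli2 and Sufu, and for 19.5% of all genes. The median log2 fold change of the 9 genes was -0.06, against 0.00 for all genes tested, and the median absolute change was 0.21, against 0.08. Knockdown and scrambled libraries did not overlap in either set, in the same direction, for Cdon, Gli2 and Sufu, and for 16.4% of all genes. The much larger differences were those between the sets: 4 of the 9 genes were called higher and 2 lower in set 2 than in set 1. That comparison called 33% of all genes higher and 32.9% lower, 65.9% in all, so this share of members is near the background. The 4 libraries of set 2 did not overlap with the 4 of set 1 for 6 of the 9 members, against 56% of all genes.

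**Figure D1:**
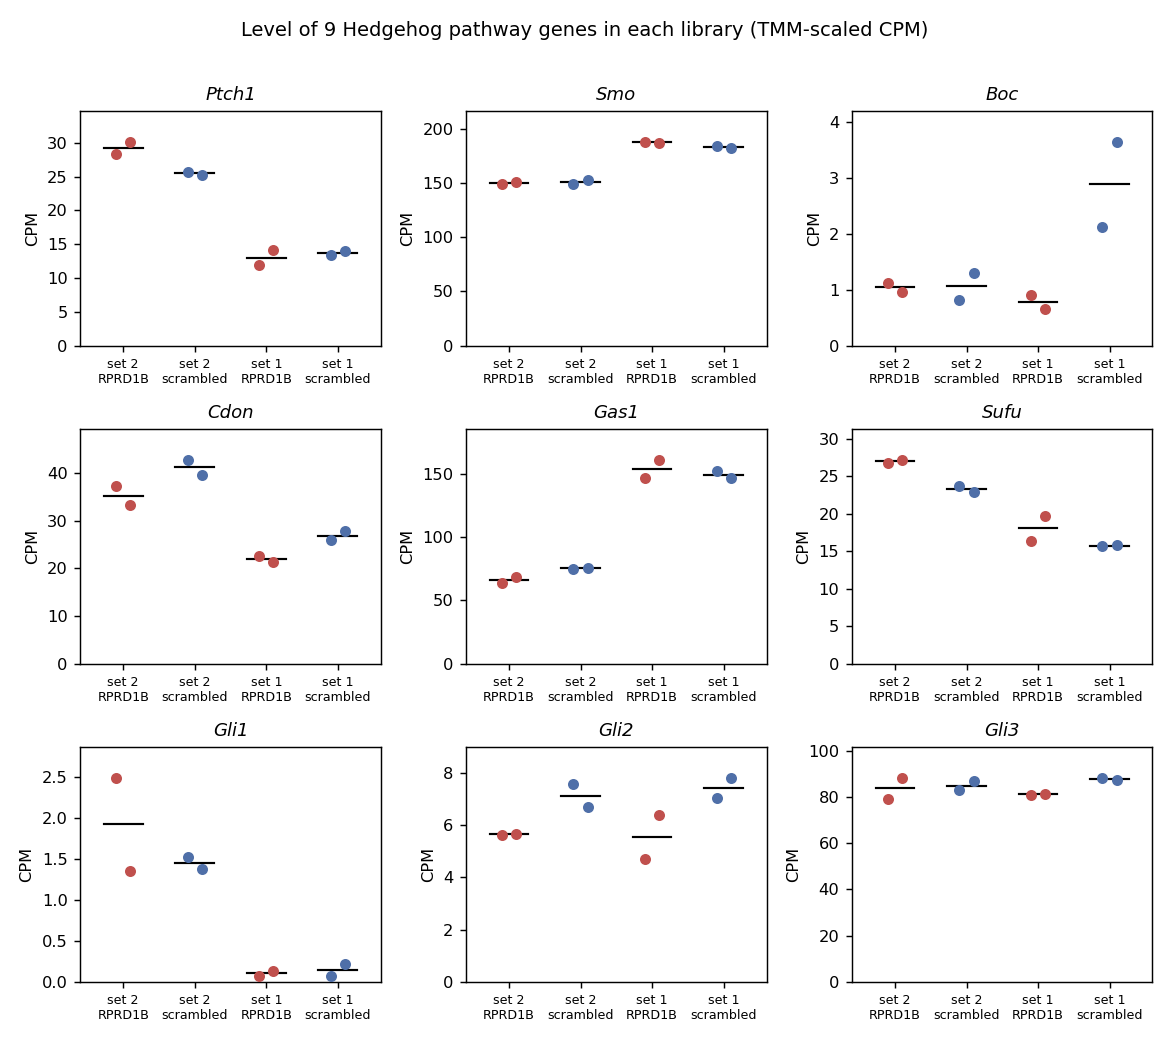
Level of the 9 genes in each library, in TMM-scaled CPM on axes that start at 0, with points for libraries, bars for the mean of 2 libraries, red for RPRD1B shRNA and blue for scrambled cells. Cdon is lower in red than in blue within each set, and Gli1, Ptch1 and Gas1 differ mainly between the sets.

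CDON is an immunoglobulin and fibronectin repeat protein of the cell surface that binds Hedgehog ligands. Cdon (chromosome 9, 35421528 to 35507652, mm10) stood at 37.2 and 33.2 CPM in RPRD1B replicates 3 and 4, against 42.8 and 39.5 CPM in scrambled replicates 3 and 4. In set 1 it stood at 22.7 and 21.2 CPM in RPRD1B replicates 1 and 2, against 25.9 and 27.9 CPM in scrambled replicates 1 and 2. Both RPRD1B shRNA libraries were below both scrambled libraries in each set, and every library of set 2 was above every library of set 1. The log2 fold change over both sets was -0.26 ± 0.07 (SE, adjusted p = 0.00832, edgeR), a level of 0.835 times that in scrambled cells. Within set 2 it was -0.24 ± 0.09 (adjusted p = 0.0857) and within set 1 -0.29 ± 0.11 (adjusted p = 0.104), so neither set alone passed the test, and the difference of 0.05 ± 0.14 between the sets did not pass either (adjusted p = 0.952). The call over both sets was lost without RPRD1B replicate 4, at -0.23 and an adjusted p of 0.0702. The authors' deposited table lists a log2 fold change of -0.226 for set 2 (q = 0.426) and -0.272 for set 1 (q = 0.253). Between the sets Cdon was higher in set 2, by 0.64 ± 0.07 (adjusted p = 6.08e-13, edgeR), with means of 38.2 ± 4.03 CPM in set 2 and 24.4 ± 3.00 CPM in set 1 (SD, n = 4 each).

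BOC is a relative of CDON with the same kind of repeats and the same ligands. Boc (chromosome 16, 44485045 to 44558870, mm10) had few counts, 14 and 22 (1.13 and 0.959 CPM) in RPRD1B replicates 3 and 4, against 14 and 17 (0.823 and 1.31 CPM) in scrambled replicates 3 and 4. In set 1 it had 13 and 10 counts (0.913 and 0.658 CPM) in RPRD1B replicates 1 and 2, against 29 and 50 counts (2.12 and 3.66 CPM) in scrambled replicates 1 and 2. The groups did not overlap in set 1 and did overlap in set 2, and the scrambled libraries of set 1 were the highest of the 8. In set 2 the log2 fold change was -0.03 ± 0.48 (adjusted p = 0.990, edgeR), with a 95% interval of -0.96 to 0.91, and in set 1 it was -1.87 ± 0.40 (adjusted p = 0.000437). The difference of 1.85 ± 0.63 between the sets did not pass the test (adjusted p = 0.309), so Boc is not shown to respond differently in them.

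Over both sets Boc stood at -1.01 ± 0.33 (adjusted p = 0.0422, edgeR), a call that rests on few counts. Without scrambled replicate 2 the value was -0.63 (adjusted p = 0.353), and without scrambled replicate 1, scrambled replicate 4, RPRD1B replicate 1 or RPRD1B replicate 2 the adjusted p was 0.0635, 0.0660, 0.160 and 0.268. DESeq2 did not call it (adjusted p = 0.150 over both sets and 0.0695 in set 1). In set 1 the call was also lost without scrambled replicate 2 (-1.43, adjusted p = 0.123), RPRD1B replicate 1 (0.0536) or RPRD1B replicate 2 (0.0941). The authors' deposited table lists -0.0121 for set 2 (q = 0.998) and -0.929 for set 1 (q = 0.0197). Their set 1 value, with an SE of 0.26, is a smaller fall than the edgeR value, and their q is under 0.05 where DESeq2 here did not call Boc. Deposited values of most other members were also nearer 0 than the edgeR values, among them Gli2 in set 1 (-0.335 against -0.41). Those of Smo in set 1 (0.0363 against 0.0361) and Gli3 in set 2 (-0.0159 against -0.0128) were not. The reason for these differences was not tested. Set 2 against set 1 gave -0.70 ± 0.33 (adjusted p = 0.0527), which missed the threshold.

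GAS1 is a membrane-anchored protein that binds ligand and can also slow entry into the cell cycle. Gas1 (chromosome 13, 60174405 to 60177535, mm10) stood at 64.0 and 68.1 CPM in RPRD1B replicates 3 and 4, against 74.7 and 75.7 CPM in scrambled replicates 3 and 4. The set 1 levels were 146 and 161 CPM in RPRD1B replicates 1 and 2, against 152 and 146 CPM in scrambled replicates 1 and 2. The groups did not overlap in set 2 and overlapped in set 1. The knockdown effect was -0.18 ± 0.07 in set 2 (adjusted p = 0.0923, edgeR), 0.05 ± 0.05 in set 1 (adjusted p = 0.736) and -0.06 ± 0.05 over both (adjusted p = 0.560), and none of these passed. The difference of -0.22 ± 0.08 between the sets had an unadjusted p of 0.00884 and an adjusted p of 0.361 in edgeR. Between the sets Gas1 had 70.6 ± 5.54 CPM in set 2 and 151 ± 6.99 CPM in set 1 (SD, n = 4 each), a log2 fold change of -1.10 ± 0.05 (adjusted p = 8.23e-32). Exons of Gm48488, a long non-coding RNA on the other strand, cover 589 of the 2961 exon bases of Gas1 (19.9%). The kit is not described as stranded, so it is not known whether reads of the 2 genes there were told apart.

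PTCH1 is the receptor that ligand binds, and its gene is one of the best known transcriptional targets of the pathway. Ptch1 (chromosome 13, 63508328 to 63573460, mm10) stood at 28.4 and 30.2 CPM in RPRD1B replicates 3 and 4, against 25.8 and 25.2 CPM in scrambled replicates 3 and 4. In set 1 the levels were 11.9 and 14.1 CPM in RPRD1B replicates 1 and 2, against 13.5 and 14.0 CPM in scrambled replicates 1 and 2. The 4 libraries of set 2 lay above the 4 of set 1 with a wide gap, and the groups overlapped in set 1 only. The knockdown effect was 0.20 ± 0.10 in set 2 (adjusted p = 0.287, edgeR), -0.08 ± 0.14 in set 1 (adjusted p = 0.866) and 0.09 ± 0.08 over both (adjusted p = 0.621). The difference between sets in this effect was 0.28 ± 0.17 (adjusted p = 0.665). Set 2 against set 1 gave 1.04 ± 0.09 (adjusted p = 2.25e-17), with means of 27.4 ± 2.33 CPM in set 2 and 13.4 ± 1.05 CPM in set 1 (SD, n = 4 each).

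SMO is the seven-pass membrane protein that PTCH1 restrains. Smo (chromosome 6, 29735497 to 29761366, mm10) stood at 149 and 151 CPM in RPRD1B replicates 3 and 4, against 149 and 153 CPM in scrambled replicates 3 and 4. In set 1 it stood at 188 and 186 CPM in RPRD1B replicates 1 and 2, against 184 and 182 CPM in scrambled replicates 1 and 2. The replicates lay within a few CPM of each other in every group, and Smo has the most counts of the 9 genes. The knockdown effect over both sets was 0.01 ± 0.04 (adjusted p = 0.898, edgeR), with a 95% interval of -0.06 to 0.08. Set 2 was lower than set 1 by a log2 fold change of -0.30 ± 0.04 (adjusted p = 4.96e-11), at 150.5 ± 1.70 CPM in set 2 and 185 ± 2.69 CPM in set 1 (SD, n = 4 each).

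The start regions of Ptch1, Gas1 and Smo are shown because these genes differed between the sets in both directions and have RefSeq windows (GRCm38.p6). RefSeq windows matched 7 of the 9 genes, all but Gli1 and Boc. Each line gives the 250 bases before the start site, 5′ to 3′ on the strand of the gene, at chr13:63565736-63565985 (minus strand) for Ptch1, chr13:60177536-60177785 (minus strand) for Gas1 and chr6:29735247-29735496 (plus strand) for Smo. Capitals mark CCACCC, the core of the GLI recognition sequence GACCACCCA, on either strand.
Ptch1: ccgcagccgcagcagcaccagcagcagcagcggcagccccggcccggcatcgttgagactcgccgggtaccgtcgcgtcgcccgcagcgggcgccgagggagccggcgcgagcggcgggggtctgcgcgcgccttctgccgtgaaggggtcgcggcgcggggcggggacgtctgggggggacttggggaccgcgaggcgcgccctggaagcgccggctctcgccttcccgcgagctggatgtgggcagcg
Gas1: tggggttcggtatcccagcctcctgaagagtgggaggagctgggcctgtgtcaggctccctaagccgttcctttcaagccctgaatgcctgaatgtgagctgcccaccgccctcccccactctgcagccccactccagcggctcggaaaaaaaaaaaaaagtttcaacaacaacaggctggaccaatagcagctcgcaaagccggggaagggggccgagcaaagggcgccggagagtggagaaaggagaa
Smo: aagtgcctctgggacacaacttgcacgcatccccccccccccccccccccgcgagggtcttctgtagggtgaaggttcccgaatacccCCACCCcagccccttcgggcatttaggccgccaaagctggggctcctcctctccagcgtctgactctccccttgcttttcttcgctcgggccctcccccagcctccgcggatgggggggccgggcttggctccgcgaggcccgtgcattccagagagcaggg
The whole sequence GACCACCCA (TGGGTGGTC on the other strand) was in none of the 7 windows of 300 bases, which run to 50 bases after the start, and in 83 of all 32851 windows (0.253%). The core CCACCC, which lies within it and was also searched on both strands, was in 3 of the 7 windows, those of Smo, Gli2 and Gli3, and in 31.5% of all windows. The Ptch1 window belongs to a start inside the gene as RefSeq outlines it, so other starts of Ptch1 lie outside it. That of Cdon also lies inside its gene, and that of Gli3 inside its gene as GENCODE outlines it. All 250 bases before the Gli3 start lie in annotated exon sequence. The whole Gas1 window also lies in annotated exon sequence of another gene.

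**Figure D2:**
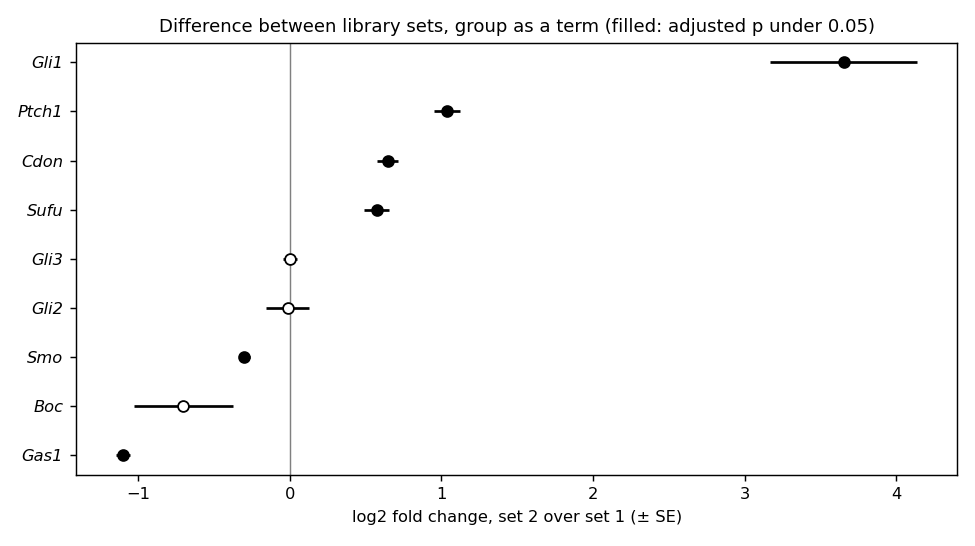
Log2 fold change of set 2 over set 1 with its standard error for each of the 9 genes, from the fit with the group as a term. Gli1, Ptch1, Cdon and Sufu lie above 0 and Gas1 and Smo below it (filled), while Gli2, Gli3 and Boc were not called (open).

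SUFU holds GLI proteins in the cytoplasm and is an inhibitor of the pathway. Sufu (chromosome 19, 46396896 to 46488804, mm10) stood at 26.7 and 27.2 CPM in RPRD1B replicates 3 and 4, against 23.6 and 22.9 CPM in scrambled replicates 3 and 4. The set 1 levels were 16.3 and 19.7 CPM in RPRD1B replicates 1 and 2, against 15.7 and 15.8 CPM in scrambled replicates 1 and 2. RPRD1B shRNA libraries were above scrambled libraries in each set, without overlap. The log2 fold change was 0.21 ± 0.08 over both sets (adjusted p = 0.116, edgeR), 0.21 ± 0.10 in set 2 and 0.20 ± 0.13 in set 1, and none passed the threshold. Sufu was higher in set 2 than in set 1 by 0.57 ± 0.08 (adjusted p = 5.83e-09), at 25.1 ± 2.17 CPM in set 2 and 16.9 ± 1.93 CPM in set 1 (SD, n = 4 each).

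GLI1 is the transcriptional activator whose gene serves as the usual readout of pathway activity. Gli1 (chromosome 10, 127329882 to 127341579, mm10) had 31 and 31 counts in RPRD1B replicates 3 and 4, against 26 and 18 counts in scrambled replicates 3 and 4. In set 1 it had 1 and 2 counts in RPRD1B replicates 1 and 2, against 1 and 3 counts in scrambled replicates 1 and 2, at or below the limit of 3 counts. Gli1 RNA was thus detected above that limit in the 4 libraries of set 2 and in none of set 1. The sums were 106 counts in set 2 and 7 counts in set 1, a depth-corrected ratio of 13.1 with an exact 95% counting interval of 6.16 to 33.5. The fit gave 3.65 ± 0.49 on the log2 scale (adjusted p = 8.31e-10, edgeR). In CPM the libraries of set 2 stood at 2.50 and 1.35 in RPRD1B shRNA cells, against 1.53 and 1.38 in scrambled cells. The knockdown effect in set 2 was 0.31 ± 0.39 (adjusted p = 0.776), with a 95% interval of -0.46 to 1.08, and Gli1 could not be tested in set 1 alone. Exons of Gm47200 and Arhgap9 on the other strand cover 327 of the 4995 exon bases of Gli1 (6.55%), and Arhgap9 itself had 0 to 5 counts per library.

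GLI2 is the main activator of the first response. Gli2 (chromosome 1, 118834061 to 119054405, mm10) stood at 5.64 and 5.67 CPM in RPRD1B replicates 3 and 4, against 7.59 and 6.69 CPM in scrambled replicates 3 and 4. In set 1 the levels were 4.71 and 6.38 CPM in RPRD1B replicates 1 and 2, against 7.03 and 7.82 CPM in scrambled replicates 1 and 2. All 4 RPRD1B shRNA libraries were below all 4 scrambled libraries. The log2 fold change over both sets was -0.38 ± 0.14 (adjusted p = 0.0906, edgeR), and it missed the threshold. It was -0.34 ± 0.21 in set 2 and -0.41 ± 0.20 in set 1. The difference between sets in level was -0.02 ± 0.14 (adjusted p = 0.930).

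GLI3 is the main repressor of the family when no ligand is present. Gli3 (chromosome 13, 15463723 to 15730026, mm10) stood at 79.2 and 88.3 CPM in RPRD1B replicates 3 and 4, against 82.8 and 87.1 CPM in scrambled replicates 3 and 4. In set 1 it stood at 80.9 and 81.4 CPM in RPRD1B replicates 1 and 2, against 88.3 and 87.4 CPM in scrambled replicates 1 and 2. The groups separated in set 1 and overlapped in set 2. The log2 fold change over both sets was -0.06 ± 0.05 (adjusted p = 0.524, edgeR), with a 95% interval of -0.15 to 0.03. Set 2 against set 1 gave 0.00 ± 0.05 (adjusted p = 0.970), with a 95% interval of -0.09 to 0.09.

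**Figure D3:**
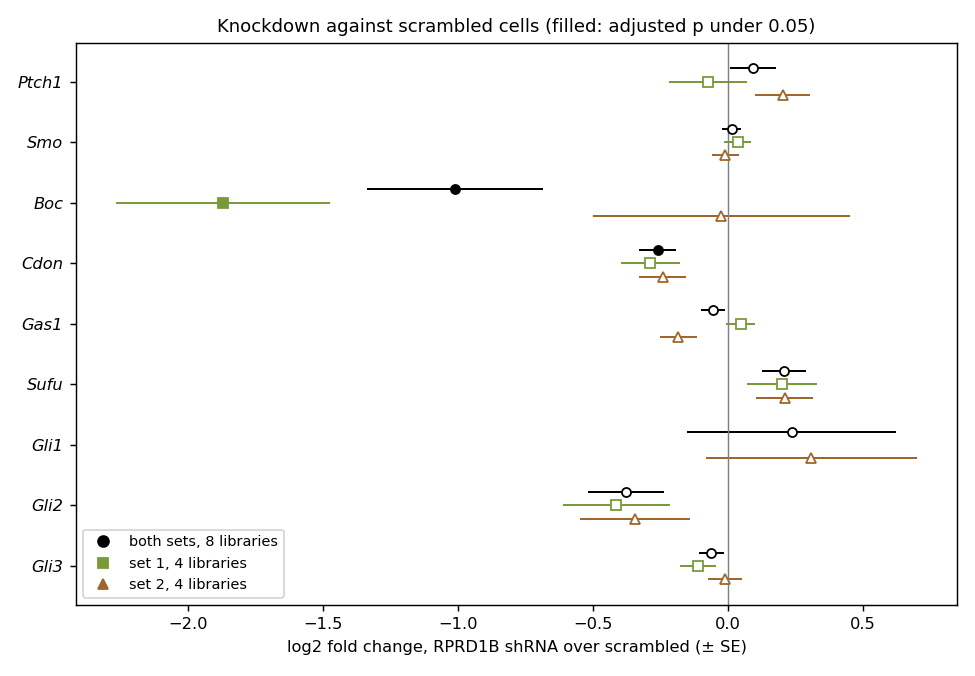
Log2 fold change of RPRD1B shRNA over scrambled cells with its standard error for each gene, over both sets (circles), in set 1 (squares) and in set 2 (triangles), filled where the adjusted p was under 0.05. Cdon and Boc are filled over both sets and Boc in set 1, and Gli1 has no value in set 1.

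Within set 2 edgeR called 0 of 9 members, against 2.55% of all genes called higher and 2.64% lower, 5.19% in all. At an unadjusted p under 0.05 there were 4 members in set 2, Cdon, Gas1, Ptch1 and Sufu, and DESeq2 called 0 there. Of all genes 16.5% had such a p in set 2. In set 1, 1 of 8 tested members was called, Boc, which was lower. There 2.68% of all genes were called higher and 2.18% lower, 4.86% in all. An unadjusted p under 0.05 was found for 3 members in set 1, Boc, Cdon and Gli2, and for 17.1% of all genes. For the difference of the knockdown effect between sets edgeR called 0 of 9 members and 0.247% of all genes (0.171% higher and 0.0768% lower), with 2 members, Boc and Gas1, at an unadjusted p under 0.05, as were 8.64% of all genes, and DESeq2 called 0. No member is therefore shown to respond differently in the 2 sets.

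Per length of exon, taken as all GENCODE exons of a gene merged, the 9 genes spanned a wide range of levels. Gas1 and Smo were highest and Boc and Gli1 lowest in both sets. This length counts exons of every annotated transcript, 14185 bases for Ptch1, so comparisons between genes depend on the annotation. Mean CPM per kilobase of exon over the 8 libraries was 37.5 ± 14.7 for Gas1, 29.9 ± 3.33 for Smo and 8.81 ± 0.390 for Gli3 (SD, n = 8). Next came Cdon at 4.06 ± 1.04, Sufu at 2.73 ± 0.624, Ptch1 at 1.44 ± 0.540 and Gli2 at 0.938 ± 0.155. Boc, at 0.325 ± 0.225, and Gli1, at 0.182 ± 0.182, were lowest. The order turned between the sets within the top pair, within the lowest pair and for Ptch1 and Gli2. Ptch1 and Gli2 averaged 1.93 and 0.931 in set 2, but 0.943 and 0.944 in set 1. In set 2 Gas1 was at 21.6 to 25.6 and Smo at 26.5 to 27.1, and in set 1 Gas1 was at 49.4 to 54.4 and Smo at 32.4 to 33.5. Boc averaged 0.237 and Gli1 0.338 in set 2, where their libraries overlapped, and Boc averaged 0.413 and Gli1 0.0247 in set 1, where they did not. Over the 8 libraries all neighbours in this order overlapped except Smo with Gli3 and Gli3 with Cdon. Within set 2 no other neighbours overlapped. Within set 1 Ptch1 overlapped with Gli2, and Gli2 with Boc. Per length, Gli3 was the highest of the GLI genes in all 8 libraries.

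**Figure D4:**
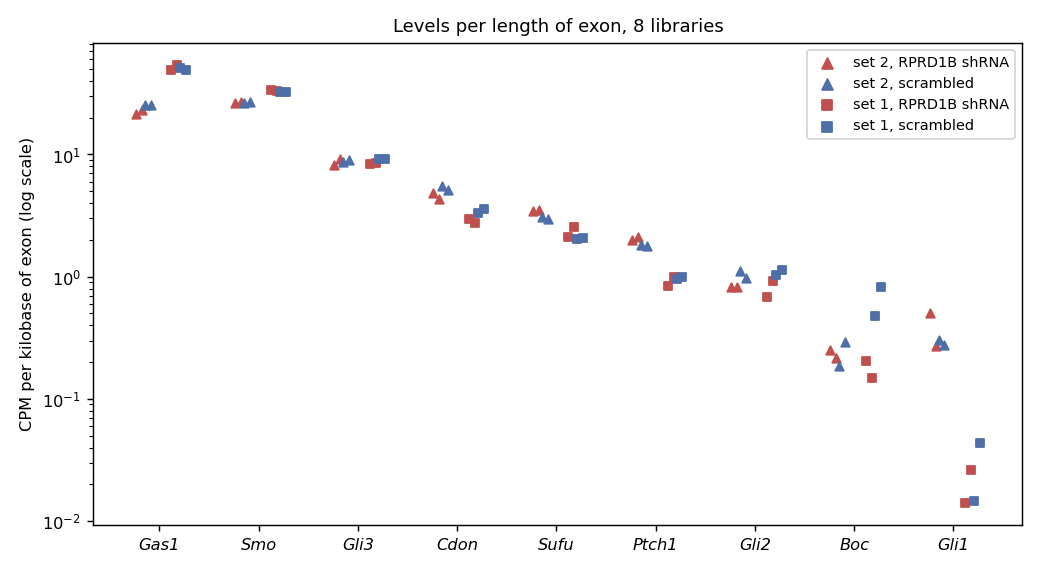
CPM per kilobase of exon (log axis) for each gene in the 8 libraries, with triangles for set 2, squares for set 1, red for RPRD1B shRNA and blue for scrambled cells. Gas1, Smo and Gli3 lie at or above 8.26 in every library, and Gli1 lies at or under 0.0439 in set 1 and at or above 0.271 in set 2.

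Elsewhere in the pathway, the ligand genes had few or no counts. Of 65 further genes in 5 lists by role, 49 had enough counts to be tested, and over both sets 2 were called higher and 5 lower, with a median log2 fold change of -0.03. These 7 of 49 stand beside the 7.57% called among all genes. Shh and Scube2 had no count in any library, Ihh, Scube1 and Scube3 had at most 2 counts, and Dhh had at most 8. Of the 8 genes of ligands and their release, Hhat, which attaches palmitate to the ligand, and Disp1, which exports it, were tested and not called, at -0.05 ± 0.11 and -0.10 ± 0.07. Hhip, a decoy receptor and target of the pathway, had no count.

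Gpc4 and Gpc6, which encode glypicans, heparan sulfate proteoglycans of the cell surface, were called in opposite directions. They were the only tested genes of 5 other receptors and ligand-binding proteins. Gpc4 fell by 0.40 in log2 units (SE 0.09, adjusted p = 0.000881, edgeR). It stood at 15.7 and 17.5 CPM in RPRD1B replicates 3 and 4, against 26.2 and 24.9 CPM in scrambled replicates 3 and 4, without overlap. The set 1 levels were 21.1 and 20.5 CPM in RPRD1B replicates 1 and 2, against 20.9 and 26.6 CPM in scrambled replicates 1 and 2, and the groups overlapped. Gpc6 rose by 0.51 ± 0.15 (adjusted p = 0.0195, edgeR), at 6.36 to 7.09 CPM in RPRD1B shRNA libraries and 4.24 to 5.35 CPM in scrambled libraries. DESeq2 did not call Gpc6 (adjusted p = 0.0542), and its edgeR call was lost without scrambled replicate 1, 2 or 4 or RPRD1B replicate 1 or 2 (0.0530 to 0.0772).

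Of 17 genes of the cilium and of SMO and GLI traffic, all tested, edgeR called 0 with knockdown, and DESeq2 also called 0, while 4 had an unadjusted p under 0.05, as did 19.5% of all genes. The median log2 fold change was -0.03. The 4 genes of smallest p were Inpp5e, a lipid phosphatase of the cilium membrane, at -0.16 ± 0.06 (adjusted p = 0.0844, edgeR), Efcab7 at -0.19 ± 0.07 (adjusted p = 0.103), the ciliary kinesin gene Kif3a at -0.11 ± 0.04 (adjusted p = 0.110) and the ubiquitin ligase gene Mgrn1 at 0.14 ± 0.05 (adjusted p = 0.126). Between the sets 9 of the 17 genes were higher in set 2 and 2 lower, among the higher ones Kif3a at 0.57 ± 0.04. Among all genes 33% were higher and 32.9% lower, 65.9% in all. Only the genes called in either direction are near that share, and more of them were higher than among all genes.

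Of 17 kinases and degradation factors that act on GLI proteins, 0 rose and 2 fell with knockdown, beside 3.97% higher and 3.61% lower among all genes. Fbxw11, an F-box protein that recognises phosphorylated GLI, fell by 0.21 (SE 0.04, adjusted p = 0.000531, edgeR), at 90.1 CPM in RPRD1B shRNA cells and 103 CPM in scrambled cells of set 2, and 87.5 CPM in RPRD1B shRNA cells and 102 CPM in scrambled cells of set 1. Ulk3, a kinase that phosphorylates GLI proteins, fell by 0.47 (SE 0.15, adjusted p = 0.0318), at 4.35 to 5.62 CPM in RPRD1B shRNA libraries and 5.61 to 7.61 CPM in scrambled libraries. Within each set, in the same direction, the Ulk3 groups did not overlap, as for 16.4% of all genes. DESeq2 did not call Ulk3 (0.0799), and its edgeR call was lost when any library other than scrambled replicates 1 and 4 was left out (0.0518 to 0.149). The casein kinase gene Csnk1d (-0.12 ± 0.04, adjusted p = 0.0556) and Spop (0.08 ± 0.04, adjusted p = 0.187), whose product brings GLI proteins to a ubiquitin ligase, were not called.

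Of 18 genes reported as GLI targets, 11 were tested, 1 rose and 2 fell with knockdown. The shares among all genes tested were 3.97% higher and 3.61% lower. Mycn, a growth-promoting transcription factor of the MYC family, fell by 0.83 (SE 0.22, adjusted p = 0.00944, edgeR). It stood at 1.05 and 0.785 CPM in RPRD1B replicates 3 and 4, against 2.12 and 1.92 CPM in scrambled replicates 3 and 4. In set 1 the levels were 3.02 and 3.42 CPM in RPRD1B replicates 1 and 2, against 4.98 and 5.12 CPM in scrambled replicates 1 and 2. Its groups did not overlap in either set, and its call was lost without RPRD1B replicate 4 (0.0533). Foxf1, a forkhead factor of mesenchyme, fell by 0.58 (SE 0.17, adjusted p = 0.0240, edgeR), at 1.69 to 4.93 CPM in RPRD1B shRNA libraries and 4.35 to 6.59 CPM in scrambled libraries. DESeq2 did not call Foxf1 (0.0648), and its edgeR call was lost without scrambled replicate 1 or 4 or RPRD1B replicate 1 or 3 (0.0634 to 0.132).

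Pdgfra, the receptor of platelet-derived growth factor and also one of the fibroblast markers, rose by 0.37 ± 0.04 (adjusted p = 5.55e-11, edgeR). It averaged 161 CPM in RPRD1B shRNA cells and 136 CPM in scrambled cells of set 2, and 245 CPM in RPRD1B shRNA cells and 174 CPM in scrambled cells of set 1. The forkhead gene Foxf2 (0.25 ± 0.09, adjusted p = 0.0702) and Snai1 (-0.20 ± 0.08, adjusted p = 0.176), a zinc finger repressor gene, were not called. Between the sets 8 of the 11 genes were lower in set 2, among them Mycn at -1.54 ± 0.23 and Pdgfra at -0.49 ± 0.04, and 1, Snai1, was higher, at 0.35 ± 0.08. Among all genes 32.9% were lower in set 2 and 33% higher.

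**Figure D5:**
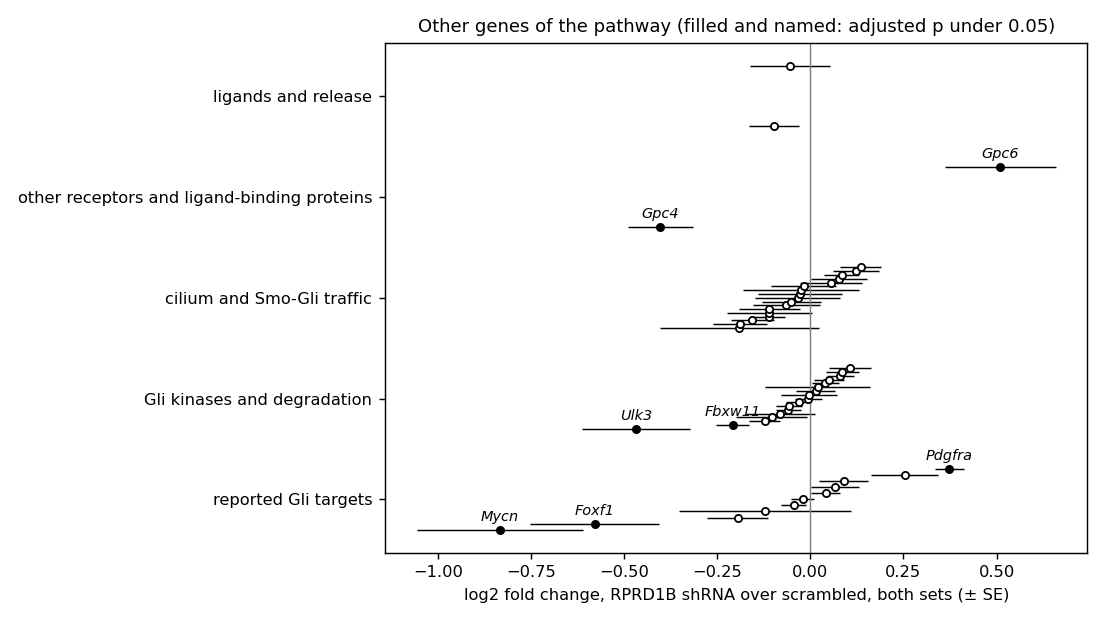
Log2 fold change of RPRD1B shRNA over scrambled cells over both sets, with its standard error, for the 49 tested genes of the 5 further lists, grouped by role. The 7 genes with an adjusted p under 0.05 are filled and named, and the rest lie around 0.

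How the members varied together was described over the 8 libraries after the mean of each set was subtracted. The groups are part of this variation, the libraries are shared by all genes, and with 9669 or 9670 candidate genes high values arise easily, so the correlations carry no p. Among the members, Pearson's r was highest for Gli2 with Cdon (0.751) and Boc with Cdon (0.706), and lowest for Sufu with Cdon (-0.812). Gli1 and Ptch1 correlated at 0.463. Every correlation of Gli1 includes set 1 values that rest on 1 to 3 counts per library. Among candidates averaging 50 counts or more, those most like Cdon were Col4a2 (0.985) and Npm1 (0.975), and those most like Boc were Arhgap33 (0.977) and Kdm5a (0.973). Ptch1 was closest to Zcchc2 (0.990) and Hspb8 (0.989), Gli1 to Lama2 (0.988) and Vmac (0.966), and Gas1 to Hipk3 (0.988) and Poldip2 (0.984). Gli2 was closest to Aff3 (0.982) and Cdc42ep3 (0.981), Gli3 to Tssc4 (0.971) and Eif2c4 (0.967), Smo to Skap2 (0.970) and Usp30 (0.966), and Sufu to Ly6a (0.985) and Edem1 (0.982). None of these 18 genes is one of the members.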

How the data were processed

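Random-hexamer cDNA from column-purified RNA went into low-input libraries, read on a NextSeq instrument as pairs of 75 bases (per the labels' protocols, which also name a Western blot as a test of the knockdown). The build is mm10, per the submitters' processing notes. Not given in the sources used here are the aligner, counting tool and annotation. The authors deposited raw counts per gene for each set of 4 libraries, used here for every test. They also deposited a comparison per set with a signal (mean normalised count), a log2 fold change (positive where knockdown is higher), its SE and an adjusted p-value (q-value), which is quoted only where named.

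Genes averaging 10 counts or more were tested in edgeR 4.0.16 (R 4.3.3) with TMM scaling and the robust quasi-likelihood F test. Terms were set and group, group within a set, or their interaction. Standard errors were derived from each log2 fold change and its F value. P-values were adjusted over all tested genes. Alternatives included DESeq2 1.42.0, other filters, other scaling, no set term, a replicate block and each library left out. Same-numbered libraries deviated together at a correlation of 0.0287 in set 1 and -0.0486 in set 2. With 2 libraries per group and set this cannot show whether the numbers pair them, and the main fits used no pairing. Loci and promoter windows are RefSeq GRCm38.p6. Exon lengths and shared exon bases are GENCODE on GRCm38, with the exons of all transcripts of a gene merged. A total of 0 sample columns were left out.

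The members and lists were chosen with earlier results of these data known. Some genes of the further lists are not reported here, and counts leave them out. All members and every other called gene of the 5 further lists are named, with up to 4 uncalled genes per list, those of smallest p, and the 2 genes most correlated with each member. Ligand and receptor genes with few or no counts are named too, a choice made after their values were seen.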

Additional observations from a re-analysis of the deposited data

How the results depend on the processing

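The 6 members called between the sets kept their direction and call under every alternative in which they were tested, and Rprd1b did so for knockdown. Over both sets Cdon was lost only without the set term (-0.25, adjusted p = 1) and without RPRD1B replicate 4, and Boc was lost in DESeq2, without robust settings (0.0569), without the set term and without 5 of the 8 libraries. Members called lower over both sets, 2 in all, fell to 1 with a mean count of at least 50 (Boc is not tested), in DESeq2 and without robust settings, and to 0 without the set term, where 18 genes in all, and 0 higher and 0 lower of the wider lists, were called. DESeq2 called 1 higher and 3 lower of the wider lists. In set 1 members called lower were 0 in DESeq2 and with a mean count of at least 50. DESeq2 called 184 genes in set 2, 140 in set 1 and 5 for the difference between sets, and 50 were called for that difference with no filter. The cause of these changes was not tested.

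With each library left out in turn, members called lower ranged from 1 to 2 over both sets and from 0 to 1 in set 1, the wider lists from 1 to 3 higher and 3 to 5 lower, and all genes called from 273 to 355 in set 2, 113 to 571 in set 1 and 7 to 53 for the difference. Uncalled values changed sign: Gli1 over both sets (-0.17 to 0.60), Ptch1 (-0.21 to 0.043) and Gas1 (-0.028 to 0.12) in set 1, Gli1 (-0.11 to 0.77), Gli3 (-0.10 to 0.059), Smo (-0.025 to 0.0047) and Boc (-0.35 to 0.31) in set 2, and Gli1 (-0.12 to 1.36), Gli2 (-0.12 to 0.32), Sufu (-0.11 to 0.16) and Cdon (-0.022 to 0.14) for the difference. Between sets Gli2 ranged from -0.10 to 0.062 and Gli3 from -0.042 to 0.031, and Gli3 stood at -0.022 with upper-quartile scaling. Boc between sets passed with that scaling (0.0439) and without any 1 RPRD1B library (0.0135 to 0.0355). With 1 library left in an arm, it is assumed to vary like the others. The replicate block called 846 genes over both sets, 509 in set 2 and 655 in set 1, and changed no call of a member. Counts of Boc and of Gli1 in set 1 limit what can be detected.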
